A study of Mus musculus with 15 samples.

Results

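Cdkn1a and 7 other genes of the p53 response, Trp53, Mdm2, Ccng1, Trp53inp1, Bax, Sesn1 and Phlda3, were followed through RNA sequencing libraries of mouse skin adipocytes. The members are the rows of the raw count table that carry these 8 gene names, out of 35373 genes, and all 8 were among the 16935 genes with enough counts to be tested. The members were chosen with these data in view: Cdkn1a was selected on its levels in the libraries with 5 days of Wnt activation and their controls, so those levels, and comparisons that use the same libraries, are given here as a description with no test.

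The libraries came from the floating cell fraction of collagenase-digested dorsal skin, and the study asked what activating β-catenin, the effector of Wnt signalling, does to the adipocytes. At postnatal day 23 (P23) there were 3 controls and 4 mice in which Wnt signalling had been active for 2 days, and at P26 there were 3 controls and 5 mice with 5 days of activation. Wnt mice were EngrailedCre/+; Rosa26rtTA/Rosa26rtTA; TetOBcat/+, a genotype in which Cre in the lineage of Engrailed-expressing cells permits doxycycline to turn on a β-catenin transgene. Controls, labelled WT, were +/+ for the Cre but also carried Rosa26rtTA/Rosa26rtTA and TetOBcat/+, and every mouse received doxycycline in food and water. The Engrailed lineage in dorsal skin is not restricted to adipocytes, so the transgene marks a lineage and not a single cell type.

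p53, encoded by Trp53, is a transcription factor that is held at a low level by the ubiquitin ligase Mdm2 and is stabilised by DNA damage and other stress. It binds DNA through paired decamers and switches on genes that halt division, promote cell death or adjust metabolism, and Mdm2 is itself one of these targets, which closes a feedback loop. The product of Cdkn1a, p21, inhibits cyclin-dependent kinases and also answers to regulators other than p53, and in mouse adipose tissue it has been studied for a role in fat cell differentiation. p53 is regulated largely at the level of its protein, which these libraries did not measure.

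Cdkn1a lies at chr17:29090976-29100727 on the plus strand of GRCm38 and Ccng1 at chr11:40748552-40755311 on the minus strand. Their promoter windows are shown because they were the only ones, among 9 windows of 7 members in RefSeq's GRCm38.p6 annotation, that held a close match to the p53 response element. Each window runs from 250 bases before the start site to 50 bases after it, 5′ to 3′ on the gene's strand, with the match in capitals. The Cdkn1a window is chr17:29090729-29091028 and the Ccng1 window is chr11:40755237-40755536.
Cdkn1a, upstream start site: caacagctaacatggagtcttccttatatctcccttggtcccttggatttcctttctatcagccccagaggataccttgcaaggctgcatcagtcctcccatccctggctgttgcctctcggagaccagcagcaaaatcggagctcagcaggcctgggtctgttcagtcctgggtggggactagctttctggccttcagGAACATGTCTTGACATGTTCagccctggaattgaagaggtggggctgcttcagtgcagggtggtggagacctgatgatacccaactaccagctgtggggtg
Ccng1: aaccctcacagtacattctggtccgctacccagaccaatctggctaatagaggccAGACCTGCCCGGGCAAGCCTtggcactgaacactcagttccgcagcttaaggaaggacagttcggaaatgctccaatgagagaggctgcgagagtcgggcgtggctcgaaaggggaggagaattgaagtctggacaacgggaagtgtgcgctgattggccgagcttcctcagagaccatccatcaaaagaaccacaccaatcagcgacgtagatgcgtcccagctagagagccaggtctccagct
The element searched was the p53 consensus of 2 abutting decamers, 20 bases in all, on both strands. Each match differed from the consensus at 1 base. The Cdkn1a match lay 51 to 32 bases before the upstream start site, and its first base was 2841 bases before the downstream start site. The Ccng1 match lay 195 to 176 bases before the start site. With at most 1 mismatch, 29 of 32851 windows genome-wide held the element, or 0.0883%. Among the 35 windows of other listed p53 targets 1 held it, that of Rps27l. Most of the members are textbook p53 targets, so the share among them is a description, and a window without these letters says nothing about binding elsewhere. The other members lie elsewhere in GRCm38: Trp53 at chr11:69580359-69591873 (plus strand), Mdm2 at chr10:117688875-117710758 (minus), Bax at chr7:45461697-45466898 (minus) and Phlda3 at chr1:135766119-135769136 (plus). Trp53inp1 lies at chr4:11156431-11174379 (plus) and Sesn1 at chr10:41809935-41908424 (plus). 

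Gene counts were scaled to normalized library sizes as CPM, and libraries held 11383421 to 38501753 counts. Counting error was small beside the spread between mice for most members: the lowest Cdkn1a count was 1582, which carries a counting error of 2.51%, whereas the lowest Trp53inp1 count was 30, with an error of 18.3%. Axin2, a target of β-catenin, ran from 4.17 to 34.8 CPM in P26 controls and from 28.2 to 62.8 CPM in 5-day Wnt libraries. Ctnnb1, the β-catenin gene, ran from 165.1 to 341.4 CPM in P26 controls and from 268.6 to 415.3 CPM after 5 days, with overlap. Adipoq, an adipocyte hormone gene, was lowest at 369.7 CPM, in a P26 control. 1 library needs a caution: the authors' sample sheet lists the library labelled 2-day Wnt replicate 1 as a control. Its name carries the letter C, like the names of all the controls, whereas the letter W marks the remaining Wnt samples. This library was kept here in the group of its title, so the main 2-day values count it as Wnt. P26 control replicate 1 also stood apart, with the highest keratinocyte markers of all libraries (5478 CPM summed) and the lowest adipocyte markers (5575 CPM). 5-day Wnt replicate 5 was nearly as low in adipocyte markers (5762 CPM) and had the highest stromal fibroblast markers of all libraries (79655 CPM summed). In bulk RNA, fewer cells of a type and less RNA per cell cannot be told apart.

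Cdkn1a stood at 407.9, 213.9 and 244.1 CPM in the 3 P26 controls and at 133.9, 85.3, 74.8, 62.3 and 94.9 CPM in the 5-day Wnt libraries. Every 5-day library was below every control of its age. The means were 288.7 ± 104.4 CPM (SD, n = 3) and 90.3 ± 27.3 CPM (n = 5), a 3.20-fold lower level with a log2 fold change of -1.68 ± 0.34 (SE). Cdkn1a was the only member of the 8 whose groups did not overlap at 5 days, against a background of 5.64% of all genes whose groups did not overlap in either direction and 2.25% that were lower in this way. The log2 fold change was -1.32 without P26 control replicate 1, the highest library.

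At P23 the control levels of Cdkn1a were 107.5, 139.8 and 166.4 CPM, and after 2 days of activation they were 180.8, 188.99, 189.5 and 92.98 CPM. Of the 4 libraries, 3 were above every control and replicate 4 was below every control. The means were 137.9 ± 29.5 CPM (SD, n = 3) and 163.1 ± 46.9 CPM (n = 4), and the log2 fold change was 0.24 ± 0.37 with a 95% interval of -0.53 to 1.01 (adjusted p = 1 by edgeR's quasi-likelihood test). It was 0.09 without P23 control replicate 1 and 0.08 with the sample sheet's grouping. The difference between the 5-day and 2-day effects was -1.92 ± 0.51 on the log2 scale, given without a test because it holds the libraries in which Cdkn1a was chosen.

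**Figure D1:**
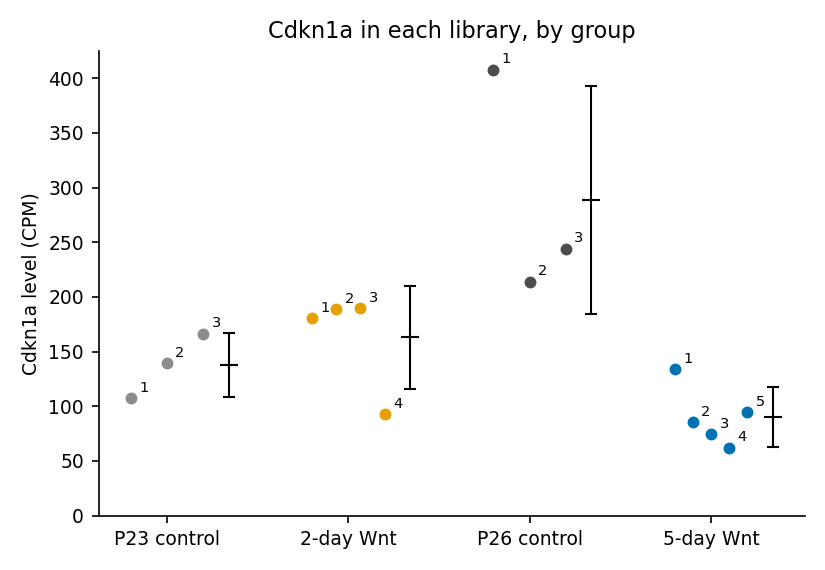
Cdkn1a level in CPM (vertical axis) in each library, by group (horizontal axis); numbered points are replicates and the bars beside them are the mean ± SD. The 5-day Wnt libraries lie between 62.3 and 133.9 CPM, all below the P26 controls at 213.9 to 407.9 CPM, while the 2-day libraries spread on both sides of their controls.

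The control groups themselves differed. Cdkn1a was 2.09-fold higher in P26 than in P23 controls (log2 1.07 ± 0.39), and the 3 libraries of each age did not overlap. This comparison shares the P26 controls with the 5-day one, so both change together if those 3 libraries are high. Ordered by mean, Cdkn1a was highest in P26 controls, then in 2-day Wnt, P23 controls and 5-day Wnt libraries. The 2-day and P23 control ranges overlapped, as did those of P23 controls and 5-day libraries, whereas the P26 controls overlapped with no other group.

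Other values that differed between P26 controls and 5-day libraries are given here, and their part in the Cdkn1a result was not tested. The 8 keratinocyte markers were all lower at 5 days than in P26 controls, with a median log2 fold change of -3.13, and their summed level was 744.3 to 5478 CPM in P26 controls and 33.002 to 1042 CPM in 5-day libraries. P26 control replicate 1 had the highest level of both, 5478 CPM of keratinocyte markers and 407.9 CPM of Cdkn1a. The 5-day library with the most keratinocyte RNA, replicate 4 at 1042 CPM, held more of it than P26 controls 2 and 3, and it had the lowest Cdkn1a level of all 15 libraries, 62.3 CPM. The 10 adipocyte markers were also all lower at 5 days, with a median of -0.38. The 7 stromal fibroblast markers were all higher at 5 days, with a median of 0.81. Of the 9 leukocyte markers 7 were lower at 5 days, with a median of -0.54, and of the 5 skeletal muscle markers 4 were lower (-0.85). The 7 hair follicle markers were all lower (-2.19), while the 5 Schwann cell (1.42), 6 endothelial and mural (1.26) and 4 erythroid markers (1.58) were all higher. Summed hair follicle markers were at 677.2 CPM in P26 control replicate 1, but at 4.69 and 2.74 CPM in replicates 2 and 3. The 5-day libraries lay at 7.25 to 255.8 CPM, so every 5-day library was above P26 controls 2 and 3 in this sum. The mitochondrial share of counts was 3.69% to 7.93% in P26 controls and 9.20% to 16.6% in 5-day libraries, with no overlap.

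Sex was also uneven. At P23, Y-linked genes exceeded Xist in 1 of the 3 controls and in 3 of the 4 libraries with 2 days of activation. At P26 they did so in all 5 of the 5-day libraries but in 1 of the 3 controls, replicate 1. That male control had the highest Cdkn1a level, 407.9 CPM, and the same library stood apart in its cell markers. With sex as a term in the model, the 5-day Cdkn1a log2 fold change was -1.71. With 1 male control at P26, sex and Wnt activation can hardly be told apart, and the part of sex was not tested further.

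Trp53, the gene of p53 itself, stood at 138.3, 32.4 and 39.8 CPM in P26 controls and at 61.6, 49.03, 61.2, 51.7 and 49.7 CPM after 5 days. The 5-day libraries were tightly grouped and lay between the high control and the other 2. The log2 fold change of -0.36 ± 0.40 turned to 0.63 without P26 control replicate 1. At P23 the controls stood at 25.9, 54.7 and 45.6 CPM and the 2-day libraries at 72.98, 68.8, 50.8 and 60.7 CPM. 3 of the 4 were above every control, and the log2 fold change was 0.59 ± 0.43 (edgeR adjusted p = 1). The highest level, 72.98 CPM, belonged to the library labelled 2-day Wnt replicate 1. With that library as a control, no 2-day library was above every control. Over the 9 other settings the 2-day log2 fold change ran from 0.27 to 0.81.

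Mdm2, which targets p53 for degradation, stood at 89.5, 81.1 and 33.9 CPM in P26 controls and at 10.4, 22.3, 22.3, 28.2 and 86.1 CPM after 5 days. Of the 5 libraries 4 were below every control, and replicate 5 was as high as the highest controls. That library also had the highest stromal fibroblast markers. The log2 fold change was -1.01 ± 0.51, and -1.70 without 5-day replicate 5. At P23 the levels were 26.6, 17.4 and 30.4 CPM in controls and 21.4, 17.3, 14.6 and 24.9 CPM after 2 days, with a log2 fold change of -0.34 ± 0.54 (edgeR adjusted p = 1). Between the control groups Mdm2 was higher at P26, with a log2 fold change of 1.46 ± 0.59 and no overlap.

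Ccng1 encodes cyclin G1, a p53 target that takes part in the control of Mdm2. It stood at 59.2, 126.6 and 87.4 CPM in P26 controls and at 97.4, 95.5, 103.2, 92.2 and 67.2 CPM after 5 days. All 5-day libraries fell inside the control range, and the means were 91.1 ± 33.8 CPM (SD, n = 3) and 91.1 ± 13.9 CPM (n = 5). Its log2 fold change was 0.00 ± 0.31. Cdkn1a and Ccng1, the members with a matching element in the promoter window, had different values in the same libraries, and the part of the element was not tested. At 2 days Ccng1 stood at 104.4, 74.5, 79.95 and 108.6 CPM against 140.6, 85.8 and 152.05 CPM in controls. The 95% interval of its log2 fold change, -0.46 ± 0.32, was -1.14 to 0.22 (edgeR adjusted p = 1).

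Bax, which opens the outer mitochondrial membrane in apoptosis, stood at 58.5, 34.4 and 38.9 CPM in P26 controls and at 55.4, 29.2, 31.8, 35.9 and 22.3 CPM after 5 days. The ranges overlapped, although 3 of the 5 libraries were below every control. At P23 it was at 18.6 to 34.2 CPM in controls and 26.8 to 56.2 CPM after 2 days. The log2 fold change was -0.33 ± 0.36 at 5 days and 0.42 ± 0.39 at 2 days (edgeR adjusted p = 1 for the 2-day value). Without P26 control replicate 1 the 5-day value was -0.05, and without P23 control replicate 1 the 2-day value was 0.18. Bax was higher in all 3 P26 controls than in any P23 control, but the nearest values were 34.4 and 34.2 CPM. Bax shares 192 exonic bases with Gm45808 on the same strand, and how the authors' counting split such reads is not given in the sources used here.

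Trp53inp1 encodes a stress protein that enhances p53 activity, and it had the widest range of the members, 31.5-fold over the 15 libraries. It stood at 80.1, 6.44 and 21.7 CPM in P23 controls and at 14.3, 28.1, 45.9 and 36.7 CPM after 2 days. A single control, replicate 1, was above every 2-day library, and the log2 fold change of -0.21 ± 0.86 (edgeR adjusted p = 1) became 1.15 without it. At P26 the controls stood at 37.7, 14.98 and 3.18 CPM and the 5-day libraries at 2.54, 19.7, 23.3, 27.7 and 44.6 CPM, with a log2 fold change of 0.34 ± 0.83, which ranged from -0.16 without P26 control replicate 3 to 1.43 without replicate 1, and was -0.61 with sex as a term.

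Phlda3, a p53 target that restrains the kinase Akt, had the highest level per length of the members, 131.5 CPM per kilobase over all libraries. It stood at 64.6, 223.9 and 402.8 CPM in P26 controls and at 105.2, 192.5, 247.9, 248.7 and 63.6 CPM after 5 days. The groups overlapped widely, and the log2 fold change of -0.43 ± 0.56 turned to 0.24 without P26 control replicate 3. At P23 the controls spanned 137.8 to 448.9 CPM and the 2-day libraries 98.7 to 305.1 CPM, and the log2 fold change was -0.59 ± 0.58 (edgeR adjusted p = 1), or -0.01 without P23 control replicate 2.

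Sesn1, a sestrin that dampens mTORC1 signalling and oxidative stress, had the largest positive log2 fold change of the members in each of the 2 Wnt comparisons. It stood at 8.29, 23.9 and 24.98 CPM in P26 controls and at 42.8, 30.5, 30.4, 20.5 and 41.9 CPM after 5 days. 4 of the 5 libraries were above every control, and the log2 fold change was 0.80 ± 0.52, or 0.04 with sex as a term. The P23 controls were at 31.3, 7.999 and 12.9 CPM and the 2-day libraries at 11.9, 36.8, 47.99 and 34.5 CPM, of which 3 were above every control. The log2 fold change of 0.91 ± 0.54 was 1.65 without P23 control replicate 1, 0.56 without P23 control replicate 2 and 0.61 with sex as a term (edgeR adjusted p = 0.955 with all libraries).

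Across the 8 members, 0 of 8 had groups that did not overlap at 2 days, where the background was 5.15% of genes. No member passed the test at 2 days in edgeR, nor in DESeq2 or limma-voom run as alternatives. Of the 16935 genes, 0% passed at an adjusted p of 0.05 in edgeR in any comparison. At an unadjusted p under 0.05 edgeR had 5.17% of genes at 2 days, 7.06% at 5 days, 5.72% for the difference and 6.98% between the control groups. DESeq2 called 0.88% of genes at 2 days, 1.18% at 5 days, 0.88% for the difference and 1.69% between controls, and limma-voom called 1.33% at 5 days and 0.791% between controls. By log2 fold change 4 members were higher and 4 lower at 2 days, and 3 were higher and 5 lower at 5 days. Between the control groups 3 of 8 members, Cdkn1a, Mdm2 and Bax, were higher at P26 without overlap, where the background was 6.51% for higher genes and 12.2% in either direction. That count is a description, because Cdkn1a was selected on levels that include these P26 controls. For Bax the nearest values were 34.4 and 34.2 CPM.

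**Figure D2:**
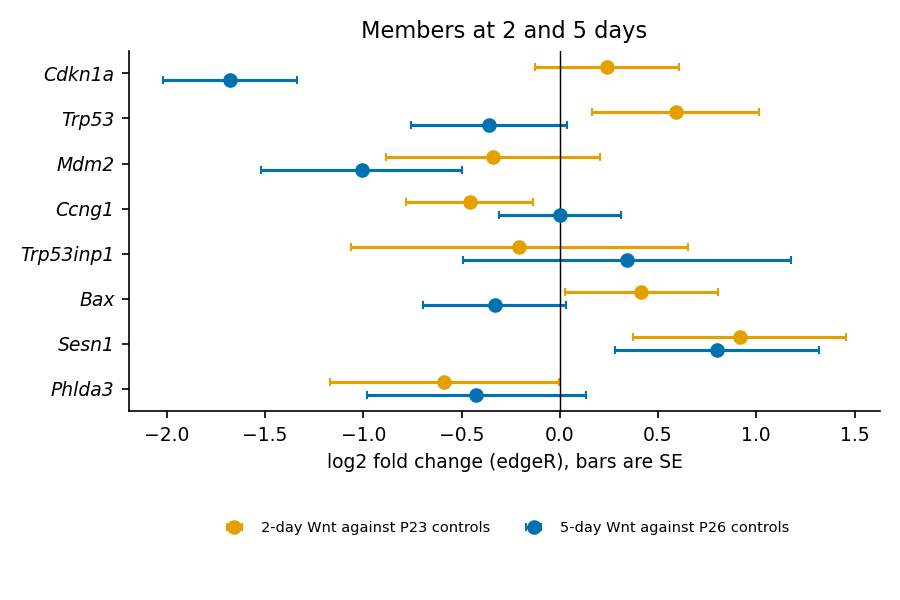
Log2 fold change (horizontal axis) of each member with its SE, at 2 days against P23 controls and at 5 days against P26 controls. Cdkn1a at 5 days, at -1.68, lies farthest from 0, while Ccng1 at 5 days lies at 0.00 and Sesn1 is above 0 at both times.

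Compared per kilobase of exon over all libraries, Phlda3 was followed by Cdkn1a (44.7 CPM per kilobase), Ccng1 (27.99), Bax (23.2), Trp53 (14.2), Mdm2 (6.90), Sesn1 (6.81) and Trp53inp1 (4.19). The order of Cdkn1a and Ccng1 was the reverse in 5-day libraries, where they stood at 25.4 and 25.9 CPM per kilobase. Mdm2 and Sesn1 were close in level.

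Other p53 targets, in 4 lists of 33 genes, are given for comparison. At 2 days 22 were higher and 11 lower at a median of 0.23 (log2 fold change), and none was called, beside 8363 higher and 8451 lower with a median of 0 over all genes. At 5 days 10 were higher and 23 lower, at a median of -0.27, beside 8730 and 8195 and a median of 0.03. Cell type markers also moved at 2 days: 9 of 9 leukocyte (median 1.24), 7 of 7 stromal (0.99), 5 of 5 Schwann cell (2.23) and 7 of 7 hair follicle markers were higher. So were 6 of 6 endothelial and mural (0.43), 5 of 5 skeletal muscle (0.67), 4 of 4 erythroid (0.81) and 5 of 8 keratinocyte markers (0.34). Of the 10 adipocyte markers 9 were lower and 1 higher, with a median of -0.44. Hair follicle markers reached 4243 CPM and mitochondrial counts 31.7% in the library labelled 2-day Wnt replicate 1. Their part in the 2-day values was not tested. Without P26 control replicate 1, 24 target genes were lower at 5 days. Without the library labelled 2-day Wnt replicate 1, 19 were higher at 2 days, and with that library as a control, as the sample sheet has it, 16 were higher and 17 lower.

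At 2 days the arrest and growth list had 6 genes higher and 4 lower (median 0.32), cell death 9 and 2 (0.24), DNA repair and nucleotide supply 2 and 3 (-0.16), and metabolism and redox 5 and 2 (0.72). The direction of the arrest and growth list turned when the library labelled 2-day Wnt replicate 1 was left out, to 4 higher and 6 lower (median -0.22), and with it as a control to 2 higher and 8 lower (median -0.16). At 5 days the arrest and growth list had 1 gene higher and 9 lower, with a median of -0.73. It is led in level by Btg2, an antiproliferative gene, at -0.59 ± 0.43, and by Sfn, which encodes 14-3-3 sigma and is abundant in keratinocytes, at -3.98 ± 1.60. The cell death list had 2 higher and 9 lower, with a median of -0.43. Its most abundant genes were Perp, a component of epithelial desmosomes, at -3.14 ± 1.27, and Ei24 at -0.27 ± 0.25. Sfn and Perp each ranged widely within the P26 controls, from 44.6 to 1588 CPM and from 41.7 to 927.7 CPM, beside the keratinocyte marker range given above, and the part of those cells was not tested. Plk3, a stress-responsive kinase, and Fas, a death receptor, were lower at 5 days with no overlap between groups, at -0.74 ± 0.40 and -0.85 ± 0.47, and both were picked out after their values were seen. The nearest values of the groups were close, at 50.3 and 51.4 CPM for Plk3 and 22.3 and 23.9 CPM for Fas, and these 2 of 33 genes stand beside 2.25% of all genes lower without overlap.

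DNA repair and nucleotide supply genes had 3 higher and 2 lower at 5 days (median 0.22), but 2 higher and 3 lower without P26 control replicate 1 (median -0.10) or without 5-day replicate 5 (median -0.02). Their most abundant genes were Pcna, the replication clamp, at -0.48 ± 0.38 and Xpc, a damage sensor, at 0.51 ± 0.53. Metabolism and redox genes had 4 higher and 3 lower (median 0.03), with Sesn2 at -0.18 ± 0.51 and Sesn3 at 1.13 ± 0.49. Sesn3 and Sesn1 belong to the same sestrin family. Among p53 regulators 8 were higher and 3 lower (median 0.20), and 10 and 1 without P26 control replicate 1 (median 1.02). Without 5-day replicate 5 the regulators were nearly evenly split, 6 higher and 5 lower (median 0.13). Usp7, which removes ubiquitin from p53 and Mdm2, was at 0.01 ± 0.44, and Hipk2, a kinase that phosphorylates p53, at -0.51 ± 0.49. At 2 days Hipk2 was below its controls in every library, where 5.15% of all genes had groups that did not overlap, with a log2 fold change of -0.96 ± 0.51 (edgeR adjusted p = 0.919). Its lowest level, 42.3 CPM, belonged to the library labelled 2-day Wnt replicate 1, so with that one as a control the groups overlap. The p53 family member Trp63, a marker of basal keratinocytes, was at -2.33 ± 0.66 at 5 days and -0.03 without P26 control replicate 1.

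**Figure D3:**
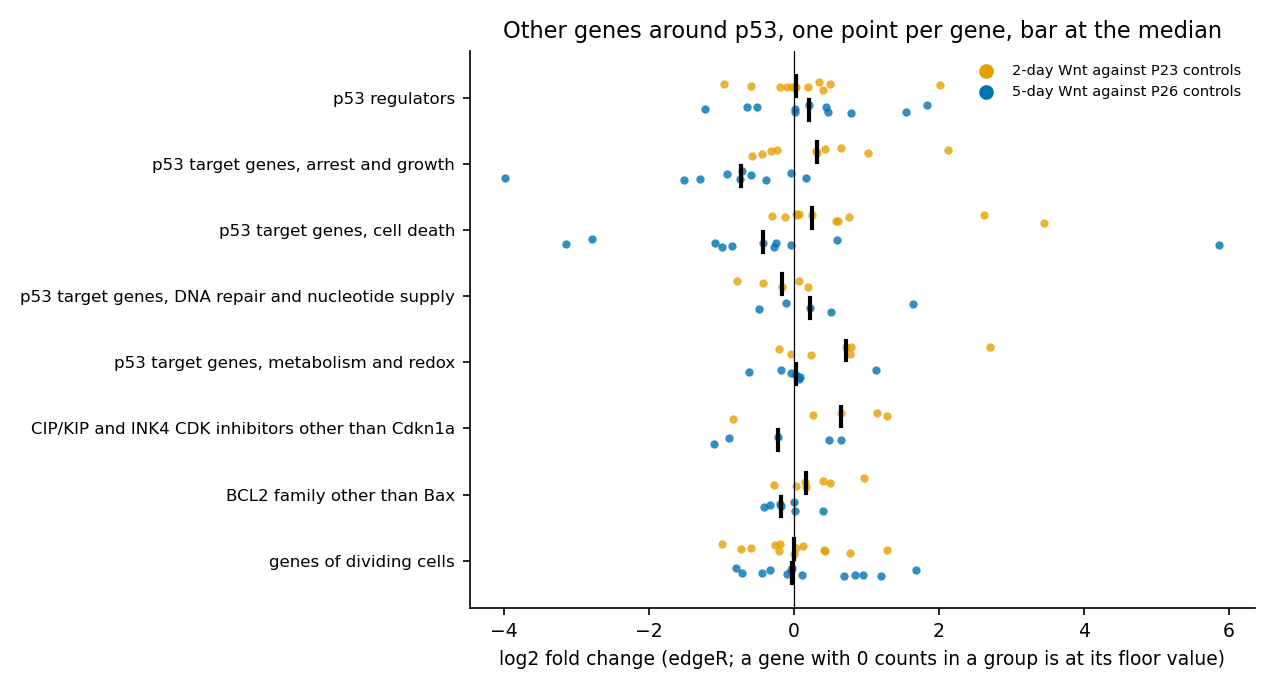
Log2 fold change (horizontal axis) of each tested gene in the lists around p53, at 2 days and at 5 days, with the median of each list as a black bar. The arrest and growth and the cell death lists have medians of -0.73 and -0.43 at 5 days and 0.32 and 0.24 at 2 days; the 2-day median of the arrest and growth list is -0.22 without the library labelled 2-day Wnt replicate 1.

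Because p21 blocks division, genes of dividing cells were listed as well. At 5 days 6 of 13 were higher and 7 lower with a median of -0.02, but without P26 control replicate 1 the split was 11 higher and 2 lower with a median of 1.16. Mcm5 and Mcm2, parts of the replicative helicase and the most abundant of the list, were at -0.80 ± 0.51 and -0.72 ± 0.39. In the P26 controls Mcm5 stood at 92.3 CPM in replicate 1 and at 15.9 and 18.3 CPM in the other 2, inside the 5-day range of 12.8 to 32.9 CPM. Ccna2 and Aurkb, a cyclin and a mitotic kinase picked out after their values were seen, were higher in every 5-day library than in any P26 control, at 1.20 ± 0.52 and 1.69 ± 1.15. The nearest values of the groups were close, at 17.7 and 16.2 CPM for Ccna2 and 6.01 and 5.44 CPM for Aurkb. Aurkb was at 0 CPM in P26 control replicate 1. These 2 of 13 genes stand beside 5.64% of all genes without overlap in either direction. At 2 days 6 were higher and 7 lower, with none called.

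The genes whose pattern was most like that of Cdkn1a were found as the smallest mean absolute difference in centred log2 CPM over the 15 libraries, among 10561 eligible genes. They were Nectin2, a cell adhesion molecule (0.32), Cxcl10, an interferon-induced chemokine (0.32), Med21, a Mediator subunit (0.34), Cldnd1 (0.35), Gtf2f2, a general transcription factor subunit (0.36), and Rdh11, a retinol dehydrogenase (0.38). Cxcl10 stood at 150.4 to 220.5 CPM in P26 controls and 46.3 to 106.0 CPM in 5-day libraries. Among the other members the nearest was Bax, at 0.57 and place 613, then Trp53 at 0.59 and place 839. Mdm2 was at place 4421, and Trp53inp1 was farthest, at place 9026. The libraries share group structure and composition, so a small distance says only that levels went together.

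**Figure D4:**
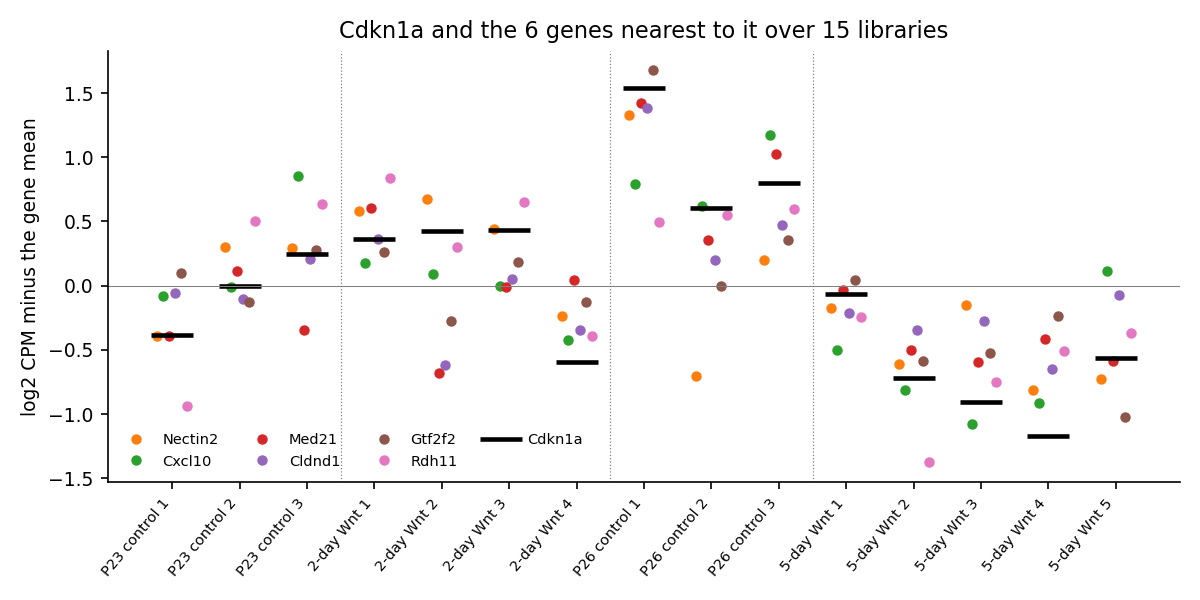
Log2 CPM minus each gene's mean over 15 libraries (vertical axis) for Cdkn1a (black bars) and the 6 nearest genes (coloured points), one column per library. Cdkn1a and most of the 6 are highest in P26 control replicate 1 and below their means in most of the 5-day libraries.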

How the data were processed

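RNA from the floating adipocyte fraction of 15 mice was sequenced. The authors deposited raw counts per gene, and these were used as deposited; a deposited sample sheet gave library names and groups. The submitters' processing notes list DESeq2 1.40.1, Cufflinks 2.2.1, SAMtools 1.9 and Trimmomatic 0.39, and the builds GRCm38 and mm10. No source used here gives the aligner, the counter or whether strand was used, so Cdkn1a reads cannot be told apart from those of AC167363.2, which overlaps 273 exonic bases on the opposite strand. Of 35373 genes, 35300 had identifiers in GENCODE M21.

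Genes were filtered with filterByExpr (16935 kept) and fitted as 4 groups with TMM scaling in edgeR 4.0.16 (robust quasi-likelihood, two-sided, Benjamini-Hochberg over all genes, threshold 0.05; R 4.3.3). The method was tested on simulated data. CPM was computed from the counts with the normalized library sizes. DESeq2 1.42.0 and limma 3.58.1 (voom with sample weights) were alternatives, among other settings and leaving out each library. Replicates are labelled biological.

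Members, lists and named genes (the 2 most abundant per list, the 6 nearest to Cdkn1a) were chosen with earlier results of these data known.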

Additional observations from a re-analysis of the deposited data

Results flagged for a closer look

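Of the 16 member groups large enough to check, those of the 4 and 5 Wnt libraries, 2 held a library far from the rest, and chance gives about 1 in 20. Cdkn1a in 2-day Wnt replicate 4 was at 92.98 CPM, apart from the other 3 libraries at 180.8 to 189.5 CPM. Mdm2 in 5-day Wnt replicate 5 was at 86.06 CPM, apart from the other 4 libraries at 10.4 to 28.2 CPM.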

How the results depend on the processing

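The number of genes called was 0 in edgeR for every comparison. DESeq2 called 149 genes at 2 days, 200 at 5 days, 149 for the difference and 286 between control groups, and limma-voom called 226 at 5 days and 134 between control groups, and the cause was not tested. Between control groups the replicate block gave 5 calls and a fit on those groups only gave 2. Leaving out each library gave 0 to 0 calls at 2 days, 0 to 4 at 5 days, 0 to 2 for the difference and 0 to 2 between control groups. Deviations of 19 same-numbered pairs correlated at -0.10 to 0.17. Pairs with different numbers were not compared, so these values cannot show whether replicate numbers pair the samples. With the replicate block Cdkn1a was at -1.50 at 5 days and 0.37 at 2 days; over all 9 other settings it ran from -1.71 to -1.50 at 5 days and from 0.08 to 0.37 at 2 days, and over fits without 1 library from 0.09 to 0.42 at 2 days.

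At 2 days the log2 fold change of Trp53inp1 turned to 0.0497 with the replicate block and 0.27 with the sample sheet's grouping, and ran from -0.71 to 1.15 over the fits that left out 1 library; Bax turned to -0.12 with the sample sheet's grouping. The cause was not tested. The Cdkn1a value at 5 days ran from -1.88 to -1.32 over those fits. Using 1 minus Pearson correlation kept 2 of the 6 genes nearest to Cdkn1a. With 3 controls at each age, differences within the spread of the controls could not be resolved.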

Other observations

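Relatives of the members were listed too. Of 5 other CDK inhibitors 4 were higher and 1 lower at 2 days, and 2 were higher and 3 lower at 5 days, with none called at 2 days. Cdkn1c, the p57 inhibitor, was at 50.3 CPM on average in P23 controls and 111.3 CPM in 2-day libraries, every one of which was above the controls (nearest values 66.3 and 66.1 CPM, beside 5.15% of all genes without overlap), with a log2 fold change of 1.15 ± 0.41 (edgeR adjusted p = 0.919); at 5 days it was at 0.65 ± 0.39. With the library labelled 2-day Wnt replicate 1, at 146.3 CPM, as a control, the groups overlap. Cdkn2c, the p18 inhibitor, was at -0.84 ± 0.64 at 2 days and -1.11 ± 0.61 at 5 days.

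Of 7 BCL2 family genes other than Bax, 2 were higher and 5 lower at 5 days. Mcl1, a survival protein, was at -0.41 ± 0.35 and Bak1, which acts in parallel with Bax, at -0.19 ± 0.40. Phlda1 was at -0.73 ± 0.43. Phlda2 had 0 counts in every P23 control, so no fold is given for it.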
